A study of Mus musculus with 7 samples.

Results

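The genes described here are 10 members of the insulin-like growth factor (IGF) axis and of the growth hormone response in mouse liver, namely Igfbp1, Igfbp2, Igf1, Igfals, Igfbp4, Ghr, Stat5b, Socs2, Socs3 and Cish. They were taken by gene symbol from the array annotation, which names 12 probe sets for them, and where a gene had several the one with the highest mean over the arrays was used. These are 10 of 19938 genes that have a probe set with a single symbol, and all 10 passed the expression minimum of 85 units. Liver RNA was collected every 4 h over 1 day, starting at ZT02 and ending at ZT26, where ZT counts the hours after lights on and lights went off at ZT12. The last time point thus repeats the clock time of the first on the following day. All groups were male C57/BL6 mice, labelled as 9 to 11 weeks old. The methods give an older age, which they state for the time of sacrifice. The mice were first fed freely in the same light cycle. For the last 7 days they had food only in the dark, from ZT12 to ZT24, so that light and food cannot be told apart. Each time point was 1 pool of liver RNA from 5 mice (500 ng each) on 1 Mouse Gene 1.0 ST array, so there was no replicate array, and the spread between mice is averaged within a pool.

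Growth hormone from the pituitary binds its receptor, encoded by Ghr, on hepatocytes and activates the kinase JAK2, which phosphorylates the transcription factor STAT5B. STAT5B drives transcription of Igf1 and Igfals, whose products leave the liver for the blood, and of the feedback inhibitors Socs2 and Cish. Circulating IGF-1 is held by binding proteins. IGFBP1 and IGFBP2 form small binary complexes with it, whereas the acid-labile subunit, encoded by Igfals, joins larger ternary ones, and hepatic Igfbp1 is known to be repressed by insulin.

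The promoter of Igfbp1 and those of the feedback genes Cish and Socs3 are shown because Igfbp1 and Cish had the widest profiles of the set and all of them carry motifs known for insulin and STAT responses. The 200 bases run from 170 before to 30 after the annotated start, on the coding strand, and come from RefSeq on GRCm38.p6. Capitals mark TGTTTTG or its complement CAAAACA in Igfbp1, the core letters of the insulin response element known in human IGFBP1, and TTCNNNGAA, the letters bound by STAT factors, in Cish and Socs3.
Igfbp1, chr11:7197617-7197816, plus strand: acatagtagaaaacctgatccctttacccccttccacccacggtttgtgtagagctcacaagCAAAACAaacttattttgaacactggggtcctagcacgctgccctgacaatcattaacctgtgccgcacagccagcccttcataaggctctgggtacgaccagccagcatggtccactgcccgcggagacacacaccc
Cish, chr9:107296489-107296688, plus strand: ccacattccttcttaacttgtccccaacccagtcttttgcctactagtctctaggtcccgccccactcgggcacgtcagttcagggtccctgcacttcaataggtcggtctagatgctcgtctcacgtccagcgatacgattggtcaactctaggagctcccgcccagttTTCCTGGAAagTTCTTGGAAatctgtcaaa
Socs3, chr11:117969337-117969536, minus strand: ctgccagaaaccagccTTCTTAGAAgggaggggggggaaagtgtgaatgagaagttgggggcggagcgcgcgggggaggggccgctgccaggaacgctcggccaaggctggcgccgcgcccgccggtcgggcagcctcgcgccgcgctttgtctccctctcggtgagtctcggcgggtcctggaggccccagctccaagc

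Over the full windows of 300 bases, which reach from 250 before to 50 after a start, 9 of the 10 genes had 14 windows in the table. The letters TGTTTTG, searched on both strands, occurred in 1 of these 14 windows, that of Igfbp1, at 108 to 102 bases before its start, and in 6.28% of all 32851 windows. The letters TTCNNNGAA, which read the same on both strands, occurred in 4 of the 14 windows and in 8.3% of all windows. Cish had 2 matches, at positions 1 to 9 and 12 to 20 counted from its start, Socs3 had 1 at 154 to 146 bases before its start, and Igfals had 1 in each of 2 of its 3 windows. A related forkhead motif, TGTTTAC, was found in 1 of the 14 windows, a window of Igfals, against 3.65% of all windows. The E-box CACGTG was found in 1, a window of Igfbp2, against 7.15%, and TATAAA in 2, of Igfbp4 and Ghr, against 13.6%. These matches describe the letters only, and whether a factor binds there was not measured.

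The liver identity of the pools was plain on every array. The summed signal of the 5 hepatocyte markers with a probe set (Alb, Apoa1, Ttr, Tat and Cps1) lay between 67787 and 70460 units, where units are the natural-scale values obtained by raising 2 to the deposited log2 value. The 9 Kupffer cell (liver macrophage) markers summed to 7155 units at ZT02, 5030 at ZT10 and 8014 at ZT26. Of these, 5 of the 8 that were tested were rhythmic in the fit described below, beside 4.47% of all tested probe sets. Stellate cell markers summed to 6297 to 7594 units and endothelial markers to 1988 to 2430 units, and of 3 lymphocyte markers only Cd3e was above 85 units. In such bulk samples fewer cells of a type and less RNA per cell cannot be told apart. Each array correlated with the remaining ones at a mean r of 0.991 to 0.993.

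For each probe set a 24-h cosine was fitted on the log2 scale, and limma tested its 2 terms together. In what follows the amplitude is the height of the fitted peak above the fitted mean, in log2 and with a standard error (SE), the fitted fold is peak over trough on the natural scale, and the adjusted p is limma's after Benjamini-Hochberg adjustment over 12076 probe sets. Of the 10 genes, 3 were rhythmic at an adjusted p under 0.05, namely Stat5b, Igfbp1 and Igfals, while 4.47% of all tested probe sets were. At an unadjusted p under 0.05 the counts were 8 of 10 genes and 25.7% of all probe sets, and only Igf1 and Ghr were outside. The 95% interval of the amplitude lay above 0 for the same 8 genes and for 39.6% of all tested probe sets. The median amplitude of the 10 genes was 0.31, beside 0.09 over all tested probe sets, and the median ratio of highest to lowest array was 1.62 beside 1.24. The count of 3 fell to 0 without ZT02 or without ZT14, to 1 (Stat5b) without ZT10, ZT18 or ZT26, and to 2 (Igfbp1 and Stat5b) without ZT06 or ZT22. The calls among all 12076 tested probe sets fell as well. From 540 they went to 13 without ZT02, 34 without ZT14, 102 without ZT10 and 189 without ZT18. They were 83 without ZT26, 170 without ZT06 and 312 without ZT22.

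**Figure D1:**
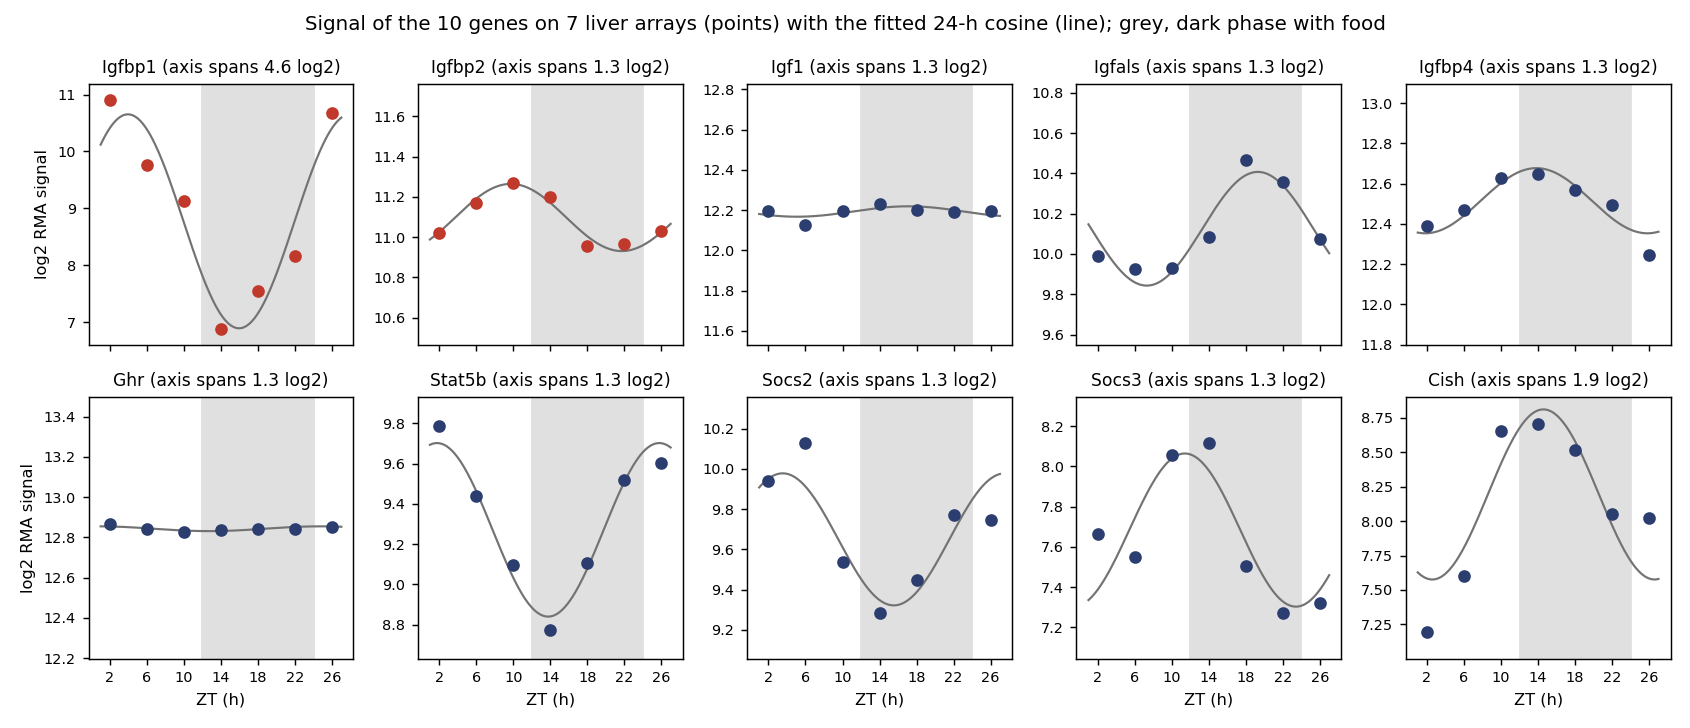
Log2 RMA signal (vertical axes, of differing span as written above each panel) of Igfbp1 and Igfbp2 (red) and the other 8 genes (blue) on the 7 arrays against ZT in hours, 1 point for each pool of 5 livers. Lines are fitted 24-h cosines and grey marks the dark phase with food. Igfbp1 spans 4.03 in log2, Igf1 and Ghr span 0.11 and 0.04.

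Igfbp1 mRNA had the widest profile of the set by far. Its signal was 1922 units at ZT02, 865 at ZT06, 557 at ZT10, 117 at ZT14, 186 at ZT18, 285 at ZT22 and 1637 at ZT26. Every light array thus exceeded every dark array, and the gene was lowest 2 h after the lights went off and food returned. The highest array exceeded the lowest by 16.4-fold, a range in log2 that lay at the 99.9th percentile of all tested probe sets.

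The decline and the return of Igfbp1 mRNA were uneven. From one array to the next it fell 2.22-fold to ZT06, 1.55-fold to ZT10 and 4.75-fold to ZT14, and then rose 1.59-fold to ZT18, 1.53-fold to ZT22 and 5.74-fold to ZT26. The largest steps therefore spanned the end and the start of the light phase. The fitted amplitude was 1.88 (SE 0.25, 95% interval 1.28 to 2.48), which corresponds to a fitted fold of 13.6 (95% interval 5.89 to 31.2), with a peak at ZT3.95 (95% interval ZT2.65 to ZT5.25, adjusted p = 0.0310). The highest array, ZT02, came before this fitted peak, and the cosine follows the steep steps only in part. With 1 array left out the adjusted p of Igfbp1 lay between 0.0329 (without ZT22) and 0.132 (without ZT14), and it was under 0.05 only without ZT06 or ZT22. On the natural scale, where the high arrays weigh more, it was 0.190.

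Igfbp2 mRNA, which encodes the other small binding protein of the set, moved little and at other hours. Its signal was 2075 units at ZT02, 2306 at ZT06, 2467 at ZT10, 2351 at ZT14, 1986 at ZT18, 1998 at ZT22 and 2090 at ZT26. It was highest around the end of the light phase and lowest in the middle and late dark, and light and dark arrays overlapped. The amplitude was 0.17 (SE 0.03, 95% interval 0.09 to 0.24), a fitted fold of 1.26, with a peak at ZT9.73 (95% interval ZT8.18 to ZT11.3), and it missed the threshold (adjusted p = 0.0590). It passed in the fit limited to means above 170 units (adjusted p = 0.0467) and in that with a trend in the prior (adjusted p = 0.0352). It missed in the other alternatives, from 0.0515 with arrays centred on their medians to 0.196 with Fisher's test for one period. With 1 array left out the adjusted p was 0.101 to 0.177.

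Between the 2 small binding proteins, the amplitude of Igfbp1 exceeded that of Igfbp2 by 1.71 in log2 (95% interval 1.11 to 2.32), and Igfbp2 peaked 5.78 h later (95% interval 3.75 to 7.81 h). This gap in time lay between 5.22 and 6.42 h when any 1 array was left out. The intervals treat the fitted errors of both genes as independent, and no p is given because the genes were chosen with results known. The amplitude of Igfbp1 also exceeded that of each of the other 8 genes, by 1.26 (95% interval 0.58 to 1.95) for Cish, the nearest, up to 1.87 (95% interval 1.26 to 2.47) for Ghr. With any 1 array left out the difference from Cish was 1.04 to 1.56. Igfbp2, in contrast, had a larger amplitude than Igf1 (by 0.14, 95% interval 0.04 to 0.24) and Ghr (by 0.15, 95% interval 0.06 to 0.25), and a smaller one than Stat5b (by 0.26, 95% interval of the difference -0.39 to -0.14) and Cish (by 0.45, 95% interval of the difference -0.79 to -0.11). The intervals for Igfbp2 against Igfals, Igfbp4, Socs2 and Socs3 included 0, and the difference from Igfbp4 lay between -0.11 and 0.12.

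**Figure D2:**
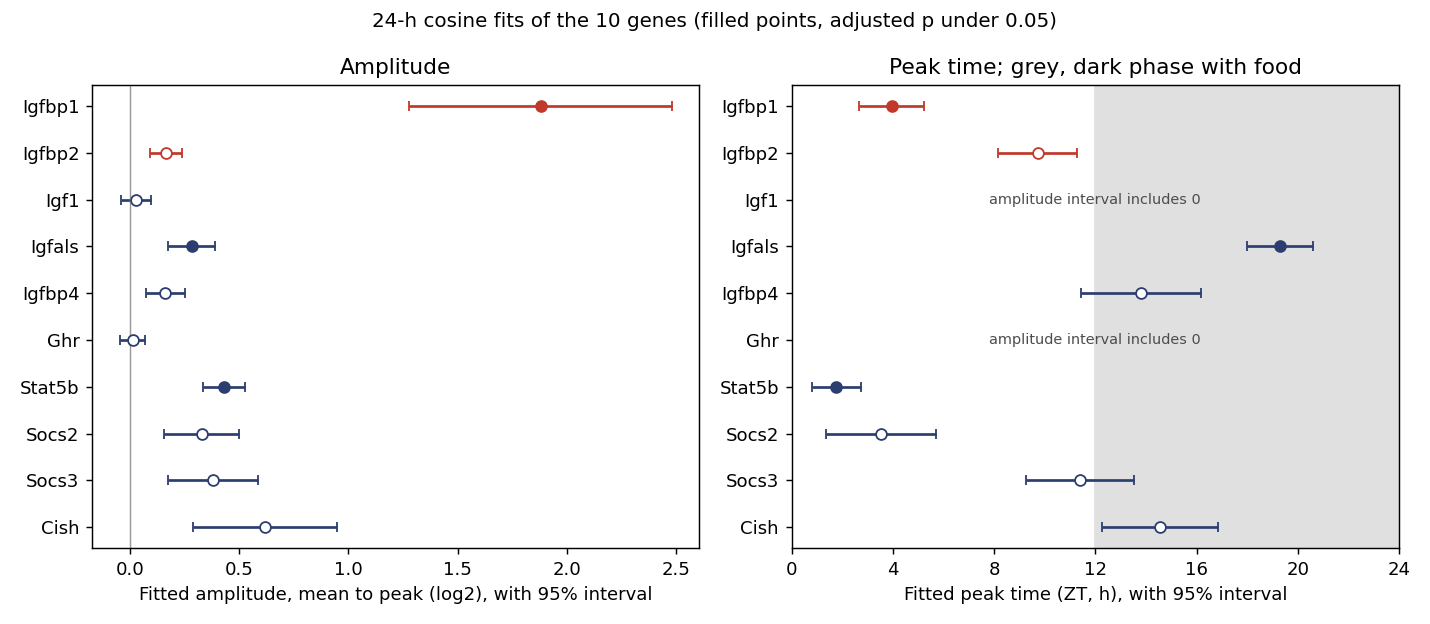
Fitted amplitude in log2 (left) and fitted peak time in ZT hours (right) with 95% intervals for Igfbp1 and Igfbp2 (red) and the other 8 genes (blue), filled where the adjusted p was under 0.05 and open otherwise. Igfbp1 stands at 1.88 with a peak at ZT3.95, Igfbp2 at 0.17 with a peak at ZT9.73, and no peak time is drawn for Igf1 and Ghr, whose amplitude intervals include 0.

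The ligand and the receptor were flat. Igf1, which encodes the main circulating growth factor of the axis, had 4695 units at ZT02, 4468 at ZT06, 4695 at ZT10, 4809 at ZT14, 4699 at ZT18, 4669 at ZT22 and 4695 at ZT26. ZT06 was the lowest array and ZT14 the highest, and these differed by 1.08-fold. The amplitude was 0.03 (SE 0.03, adjusted p = 0.806), and the upper bound of its 95% interval corresponds to a fitted fold of 1.14. Ghr, which encodes the growth hormone receptor, lay between 7276 units at ZT10 and 7463 at ZT02, a 1.03-fold range. Its amplitude was 0.01 (SE 0.02, adjusted p = 0.939), with an upper bound that corresponds to a fitted fold of 1.103. The log2 signals of Igf1 (12.2) and Ghr (12.8) are in the upper part of the scale, on which no probe set of any array exceeded 14.48. Igf1 had the same log2 value, 12.1968, at ZT02, ZT10 and ZT26, and Ghr the same value, 12.8423, at ZT18 and ZT22. Such ties were not particular to these genes or to strong signals. Igf2 had 6.34988 at ZT14, ZT22 and ZT26, and Reln, a stellate cell marker, had 10.083 at ZT10, ZT14 and ZT18. Whether saturation or the summary of the probes of a set narrowed their profiles was not tested.

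Igfals mRNA was highest in the dark. It had 1016 units at ZT02, 974 at ZT06, 977 at ZT10, 1086 at ZT14, 1414 at ZT18, 1310 at ZT22 and 1077 at ZT26. All 3 dark arrays exceeded all 4 light arrays, ZT14 by a small margin, and ZT18 exceeded ZT06, the lowest array, by 1.45-fold. The amplitude was 0.28 (SE 0.05), a fitted fold of 1.48 with a peak at ZT19.3 (95% interval ZT18.0 to ZT20.6, adjusted p = 0.0448). The call was lost with any 1 array left out, where the adjusted p was 0.0835 to 0.140. In these fits the count of all probe sets called also fell, from 540 to between 13 and 312. Limma's unadjusted p of Igfals then lay between 0.00116 (without ZT14) and 0.0142 (without ZT18), beside 0.00177 with all 7 arrays. Igfbp1 peaked 8.65 h away from Igfals (95% interval 6.80 to 10.5 h) and Igfbp2 9.57 h away (95% interval 7.54 to 11.6 h).

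Igfbp4, a further binding protein gene, had 5371 units at ZT02, 5662 at ZT06, 6323 at ZT10, 6424 at ZT14, 6082 at ZT18, 5770 at ZT22 and 4851 at ZT26. It was highest around the change from light to dark and lowest at the clock time at which Igfbp1 was highest. Its amplitude of 0.16 (SE 0.04, 95% interval 0.07 to 0.25), with a peak at ZT13.8, missed the threshold (adjusted p = 0.0962). Igfbp1 peaked 9.86 h apart from it (95% interval 7.15 to 12.6 h) and Igfbp2 4.08 h before it (95% interval 1.24 to 6.91 h). Thus the peak times of the 3 binding protein genes fell in the early light, the late light and the early dark, although only that of Igfbp1 belonged to a profile past the threshold.

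Stat5b, which encodes the growth hormone-activated transcription factor, had the lowest p of the set. It had 883 units at ZT02, 695 at ZT06, 547 at ZT10, 438 at ZT14, 551 at ZT18, 735 at ZT22 and 777 at ZT26. The signal fell on each array through the light phase to ZT14 and rose on each array thereafter, and light and dark arrays overlapped. The amplitude was 0.43 (SE 0.04, 95% interval 0.33 to 0.53), a fitted fold of 1.82 with a peak at ZT1.77 (95% interval ZT0.80 to ZT2.74, adjusted p = 0.0151). The adjusted p was 0.0659 without ZT02 and 0.0835 without ZT14, and under 0.05 without each of the other 5 arrays. The fitted peak of Igfbp1 came 2.18 h after that of Stat5b (95% interval 0.56 to 3.80 h), a smaller gap than that to Igfals, the remaining rhythmic gene. On the arrays themselves Igfbp1 and Stat5b were both highest at ZT02 and lowest at ZT14, so no order between them was seen there. Igfbp2 peaked 7.96 h after Stat5b (95% interval 6.13 to 9.79 h). The hours of the Stat5b peak were also those at which the summed Kupffer cell markers were high (7155 units at ZT02 and 8014 at ZT26, against 5030 at ZT10), and their part in the result was not tested. Stat5a, a near-identical gene beside Stat5b, had an amplitude of 0.18 (SE 0.05) with a peak at ZT21.9 and an adjusted p of 0.149, and whether the probes keep both genes apart was not tested.

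The feedback inhibitors Socs2, Cish and Socs3 had fitted peaks in the early light, the early dark and the late light, and none of them passed the threshold. Socs2, which limits growth hormone signalling, had 983 units at ZT02, 1119 at ZT06, 742 at ZT10, 624 at ZT14, 698 at ZT18, 874 at ZT22 and 858 at ZT26. Cish had 146 units at ZT02, 194 at ZT06, 402 at ZT10, 418 at ZT14, 366 at ZT18, 266 at ZT22 and 260 at ZT26. Socs2 was thus highest at ZT06 and lowest at ZT14, the time point at which Cish was highest. The fitted peaks were ZT3.54 for Socs2 and ZT14.6 for Cish, 11.0 h apart (95% interval 7.87 to 14.2 h). Cish and Socs3 peaked 3.17 h apart (95% interval 0.04 to 6.29 h) and Socs3 and Socs2 7.86 h apart (95% interval 4.82 to 10.9 h). These comparisons were made after the values were seen, and Cish differed 1.77-fold between the pools of ZT26 and ZT02.

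The amplitude of Socs2 was 0.33 (SE 0.07, adjusted p = 0.0849) and that of Cish 0.62 (SE 0.14, adjusted p = 0.0894). With 1 array left out the adjusted p of Socs2 lay between 0.0892 and 0.271 and that of Cish between 0.0853 and 0.236. Igfbp1 and Socs2 peaked within 0.41 h of each other (95% interval of the difference -2.12 to 2.94 h), whereas Igfbp1 and Cish peaked 10.6 h apart (95% interval 7.99 to 13.3 h). Igfbp2 peaked 4.84 h before Cish (95% interval 2.07 to 7.61 h). A second probe set of Socs2, with a mean of 192 units, had an amplitude of 0.10 and an adjusted p of 0.412 when used in place of the first, and its Pearson r with the first was 0.613 over the 7 arrays, so the probe sets describe the gene unequally.

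Socs3, an inhibitor induced by cytokines as well as by growth hormone, had 203 units at ZT02, 187 at ZT06, 266 at ZT10, 278 at ZT14, 182 at ZT18, 155 at ZT22 and 160 at ZT26. The arrays on either side of lights off, ZT10 and ZT14, were the highest of the 7. The amplitude was 0.38 (SE 0.09) with a peak at ZT11.4 (95% interval ZT9.28 to ZT13.5), and the adjusted p was 0.0929. Its peak time lay 1.68 h from that of Igfbp2 with a 95% interval of the difference of -0.96 to 4.31 h, and 7.46 h from that of Igfbp1 (95% interval 4.96 to 9.95 h). A second Socs3 probe set had a mean of 68.6 units, under the expression minimum, and an amplitude of 0.12.

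The clock time that was sampled on consecutive days, ZT02 and ZT26, gives the only repeat. Over all tested probe sets the size of the difference between these arrays had a median of 0.09 in log2 and a 90th percentile of 0.27. Igfbp1 differed by -0.23 (ZT26 minus ZT02), Igfbp2 by 0.01 and Igf1 by 0.00. For Igfbp1 the range over the 7 arrays was 17.4 times this difference. Cish stood out, with 1.77-fold more signal at ZT26 than at ZT02 (0.83 in log2, the 99.8th percentile of all tested probe sets by size), and its range of 1.51 in log2 was only 1.83 times the difference between these pools. Socs3 differed by -0.34 (95.1th percentile), Socs2 by -0.20, Stat5b by -0.18, Igfbp4 by -0.15, Igfals by 0.08 and Ghr by -0.01.

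**Figure D3:**
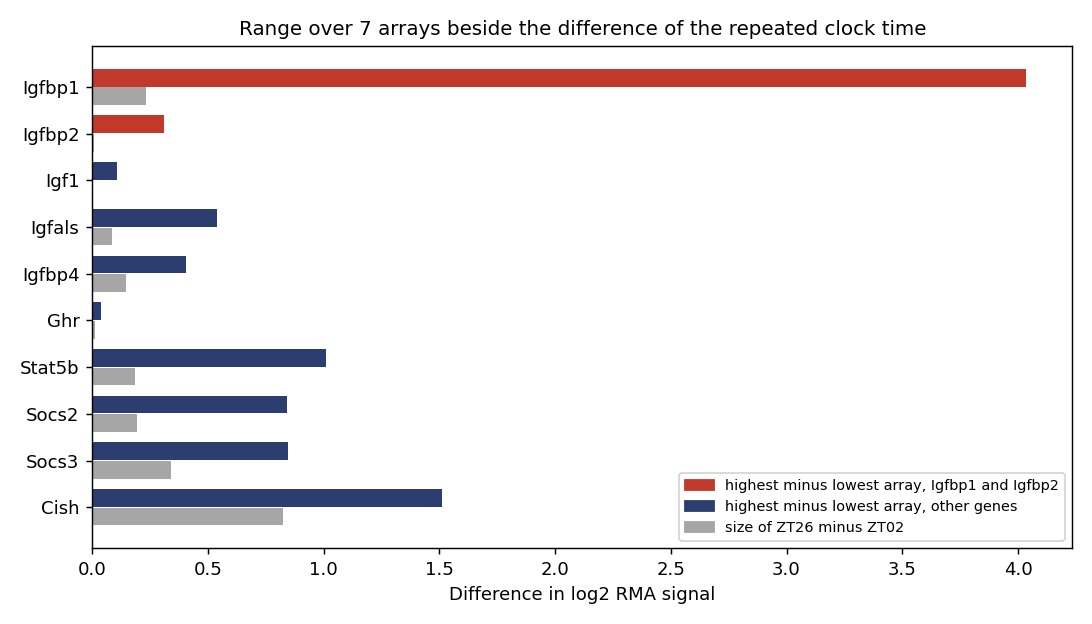
Difference between the highest and lowest of 7 arrays (coloured bars, red for Igfbp1 and Igfbp2 and blue for the other 8 genes) above the size of ZT26 minus ZT02 (grey bars), both in log2 RMA signal. The range of Igfbp1 is 4.03 beside a repeat difference of 0.23, and that of Cish is 1.51 beside 0.83.

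The 3 dark arrays with food (ZT14, ZT18 and ZT22) were also set against the 4 light arrays without food (ZT02, ZT06, ZT10 and ZT26). Igfbp1 averaged 7.52 ± 0.64 in log2 on dark arrays and 10.1 ± 0.83 on light arrays (SD over time points, n = 3 and n = 4), a dark minus light difference of -2.59 (95% interval -3.75 to -1.43), so that its geometric mean was 6.03-fold higher in the light. Igfals averaged 10.3 ± 0.20 on dark arrays and 9.98 ± 0.07 on light arrays, a difference of 0.32 (95% interval 0.10 to 0.54). These were the 2 genes of the set whose dark and light arrays did not overlap, which was the case for 8.68% of all tested probe sets. Igfbp2 averaged 11.0 ± 0.14 on dark arrays and 11.1 ± 0.12 on light arrays, a difference of -0.08 (95% interval -0.29 to 0.13).
With limma's adjusted p, 0 of the 10 genes passed and 0.0% of all probe sets did, so that no gene of the set could be called in this comparison (adjusted p = 0.403 for both Igfbp1 and Igfals). At an unadjusted p under 0.05, 2 of the 10 genes and 11.2% of all probe sets passed. Time points within a phase stand in for replicates here, and their spread contains the rhythm itself.

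Other genes of the pathway were taken from lists chosen by function, and their counts stand beside the 4.47% of all tested probe sets that were rhythmic and the 25.7% that had an unadjusted p under 0.05. In lists of this size a share of 4.47% amounts to less than 1 gene, so that counts of 0 or 1 do not set a list apart. None of 6 tested IGF ligands, receptors and binding proteins outside the set was rhythmic (2 at an unadjusted p under 0.05). The widest of these was Igfbp5, another binding protein gene, with an amplitude of 0.50 (SE 0.10), a peak at ZT18.9 and an adjusted p of 0.0629, whereas Igf2, the fetal growth factor, was under the expression minimum with a mean of 80.9 units. Of 8 proteases of binding proteins and their inhibitors only Mmp2 and Adam9 were above the minimum and 0 were rhythmic (1 at an unadjusted p under 0.05). Mmp2, a matrix protease, had an amplitude of 0.24 (SE 0.06, adjusted p = 0.105).

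Among 19 tested genes of growth hormone and cytokine signalling, 0 were rhythmic by limma's adjusted p (4.47% of all probe sets) and 10 had an unadjusted p under 0.05 (25.7% of all probe sets). The widest was Irs2, an insulin receptor substrate, with an amplitude of 0.60 (SE 0.13), a peak at ZT4.11 and an adjusted p of 0.0911. Of 11 tested male-biased growth hormone target genes and their regulators, 1 was rhythmic beside 4.47% of all probe sets (4 at an unadjusted p under 0.05), the fatty acid elongase gene Elovl3, with an amplitude of 1.38 (SE 0.18), a peak at ZT0.11 and an adjusted p of 0.0303. The list named insulin-repressed held G6pc, Pck1, Ppargc1a, Pdk4, Foxo1 and Foxo3. Whether insulin represses each of these transcripts was not measured. Of these 6 genes 1 was rhythmic beside the same 4.47% (2 at an unadjusted p under 0.05). This was Pdk4, a kinase that restrains pyruvate oxidation, with an amplitude of 1.35 (SE 0.14), a peak at ZT23.8 and an adjusted p of 0.0201. The median amplitudes of these lists were 0.14, 0.13, 0.15, 0.10 and 0.22 in the order given, beside 0.31 for the 10 genes.

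The profiles most like that of Igfbp1 were sought among the 294 tested genes with an amplitude above 0.5, by Pearson's r over the 7 arrays. They were those of Egr1, an immediate early transcription factor (r = 0.971), Ocln, the tight junction protein occludin (r = 0.960), Depp1 (r = 0.959), the transporter gene Abca8b (r = 0.953) and Irs2 (r = 0.947). Depp1 had an amplitude of 1.64 (SE 0.20) and, like Igfbp1, its lowest array at ZT14 (6.87 in log2) and its highest at ZT02 or ZT26 (10.5 on each). For Igfbp2 the closest were Klf10, a Krüppel-like transcription factor (r = 0.986), Gpcpd1, a glycerophosphocholine phosphodiesterase (r = 0.973), Rgs16, a regulator of G protein signalling (r = 0.970), Txnip, the thioredoxin-interacting protein (r = 0.958), and the mitochondrial carrier gene Slc25a47 (r = 0.957). These genes were all highest at ZT10, as Igfbp2 was, with amplitudes of 0.70 for Txnip to 2.13 for Rgs16. That they exceed the 0.17 of Igfbp2 was fixed by the search, which took only amplitudes above 0.5. Genes with an amplitude as small as that of Igfbp2 were not searched. The correlations describe 7 shared arrays and carry no test.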

How the data were processed

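The deposited values were log2 signals of 35556 probe sets on 7 arrays. Per the labels the authors used Affymetrix Expression Console 1.1.2637.26569 and RMA, which corrects background, normalizes the arrays to one another and summarises the probes of a set, and such a summary can narrow changes. The genome build of the array design is not given in the sources used here. Of these probe sets 21789 have a single symbol in the platform annotation, 1621 several and 12146 none. The 12076 single-symbol probe sets whose mean exceeded 85 units, the minimum of the methods, were tested.

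A 24-h cosine was fitted by lmFit and eBayes of limma 3.58.1 (R 4.3.3), with ZT02 and ZT26 at one clock time. Its cosine and sine terms were tested jointly by the moderated F-test and called at a Benjamini-Hochberg adjusted p under 0.05. P-values set departure from flatness against the residuals of the pools from the fitted cosine, moderated by a prior over all tested probe sets. These residuals mix departure from the cosine shape with the spread between pools, and only ZT02 and ZT26 repeat a clock time. P-values, standard errors and intervals therefore do not measure the spread between pools alone. The spread between mice is averaged over the 5 animals of a pool. Intervals of 95% use the moderated standard errors with 6.58 degrees of freedom. Dark and light arrays were compared with limma over the same probe sets. Scripts were tested on simulated data. The number of arrays limits the precision.

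The 10 genes and all lists were chosen with earlier results of these data known. Named genes were the 10 members, up to 3 rhythmic genes with the largest amplitude of each further list (the widest one in lists with 0 calls), and the 5 genes with an amplitude above 0.5 most correlated with Igfbp1 and with Igfbp2. Stat5a, Igf2, Adam9, the remaining genes of the insulin-repressed list and the marker genes were named in addition, after their values were seen. Alternatives left out each array in turn and changed the expression minimum, scale, centring, prior, test, model and probe set.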

Additional observations from a re-analysis of the deposited data

Results flagged for a closer look

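Igf1 was flagged because 1 light array stood apart from the rest of its phase. On the 4 light arrays its signal was 12.13 in log2 at ZT06 and 12.20 at each of ZT02, ZT10 and ZT26, which agree to 4 decimals, so that the gap of ZT06 to the nearest array is the whole range (Dixon's ratio 1, above the 95% critical value for 4 arrays). With the values of ZT02, ZT10 and ZT26 equal, the ratio is 1 whatever the size of the gap, so the critical value carries no weight here. The ZT06 array was lower than these by 0.07 in log2, a 1.05-fold difference. The 10 genes were examined in this way, and the light arrays are different time points rather than replicates. Chance flags about 1 in 20 groups, a rate that does not hold for tied values.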

How the results depend on the processing

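No paired analysis was possible because each time point has 1 array and the labels carry no replicate numbers. With Fisher's test for one period 0 of the 10 genes and 0 probe sets were called (2101 at an unadjusted p under 0.05), with adjusted p of 0.214 for Igfbp1, 0.193 for Stat5b and 0.214 for Igfals. On the natural scale 0 genes and 68 probe sets were called, with 0.190, 0.0566 and 0.0977 for the same genes. With no filter on the mean level 1 gene (Stat5b) and 57 probe sets were called, with 0.0805 for Igfbp1 and 0.0966 for Igfals. With a 12-h cosine added 1 gene (Stat5b) and 353 probe sets were called, with 0.0808 for Igfbp1 and 0.0577 for Igfals. Igfbp2 was called in addition to the 3 genes at a mean above 170 units (0.0467) and with a trend and robust prior (0.0352). In none of the other alternatives was Igfbp2 called. With 1 array left out, 0 to 2 genes and 13 to 312 probe sets were called, and the adjusted p ranged from 0.0329 to 0.132 for Igfbp1, 0.0321 to 0.0835 for Stat5b and 0.0835 to 0.140 for Igfals. Without ZT22, 1 probe set differed between dark and light arrays, and 0 without any other array. The causes of these changes were not tested. Under these alternatives the fitted peaks of the 3 called genes moved by at most 0.69 h, and the amplitude of Igfbp1 remained above those of the other 8 genes with 1 array left out and on the natural scale. Centring the arrays on their medians changed no call among the 10 genes.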
